A study of Caenorhabditis elegans with 3 samples.

Results

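The cyclins, cyclin-dependent kinases (CDKs) and CDC25 phosphatases described here are the genes that drive entry into S phase and M phase. They were taken as a fixed list of 10 Caenorhabditis elegans genes: the B-type cyclin genes cyb-1, cyb-2.1, cyb-2.2 and cyb-3, the cyclin E gene cye-1, the cyclin A gene cya-1, the kinase genes cdk-1 and cdk-2, and the phosphatase genes cdc-25.1 and cdc-25.2. A gene was counted as measured when a probe was annotated to it and to no other gene. This held for 8 of the 10, each with 1 probe, out of 15168 genes measured on the arrays in the same way. The paralogs cyb-2.1 and cyb-2.2 share their probe, so neither has a value of its own.

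RNA of adult hermaphrodites, labelled as TP11 adults "w/ emb 2" and read here as adults carrying embryos, was set against RNA of a wild-type mixture by 2-colour hybridisation. Each of preps 1 to 3 has its own array, and the 3 arrays form a single group. The labels give no strain, age or treatment for the adults and no composition for the mixture. They do not say that the preps came from separate cultures, and p-values here therefore reflect sample-to-sample spread that could be technical. Each value is a log2 ratio, read as adult over reference from the order of the channels. The dyes are not named in the labels, which makes this direction likely but unsettled, and every "higher" and "lower" below rests on it.

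The kinases CDK-1 and CDK-2 are active only when bound to a cyclin. Their activity is held back by inhibitory phosphates that WEE1-type kinases add and CDC25 phosphatases remove. In dividing cells cyclin E with CDK2 acts at entry into S phase, and cyclins A and B with CDK1 act at entry into mitosis and meiosis. In the adult hermaphrodite, cells of the germ line and of the embryos in the uterus divide, and oocytes are loaded with maternal mRNA for the first embryonic divisions.

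Of the 8 measured genes, 6 were higher in the adults: cyb-3, cdc-25.1, cye-1, cdc-25.2, cdk-1 and cya-1, by 3.8-fold for cyb-3 down to 1.59-fold for cya-1. The other two, cyb-1 and cdk-2, did not pass the test, and 0 members were lower. The test was limma's moderated test of the mean log2 ratio against 0, fitted to all 19710 probes with a value on all 3 arrays, with Benjamini-Hochberg adjusted p under 0.05 as the threshold. By that rule 15.8% of all probes tested were higher and 16.2% lower, which together make 32.0%. The median of the members' mean log2 ratios was 0.89, against −0.0012 over all probes. In RNA of whole animals, more or fewer cells of a type cannot be told apart from more or less RNA per cell.

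The spread of the log2 ratios over all probes was widest on prep 1, where the robust SD was 0.773, and narrower on preps 2 (0.484) and 3 (0.37). The medians of the 8 members followed the same order, at 1.13, 0.87 and 0.73. As percentiles among the probes of each array the members' median was nearly level, at 90.3 on prep 1, 90.1 on prep 2 and 91.2 on prep 3. On each array 7 of the 8 members had a positive log2 ratio. The negative one was cdk-2 on preps 1 and 2 and cyb-1 on prep 3.

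**Figure D1:**
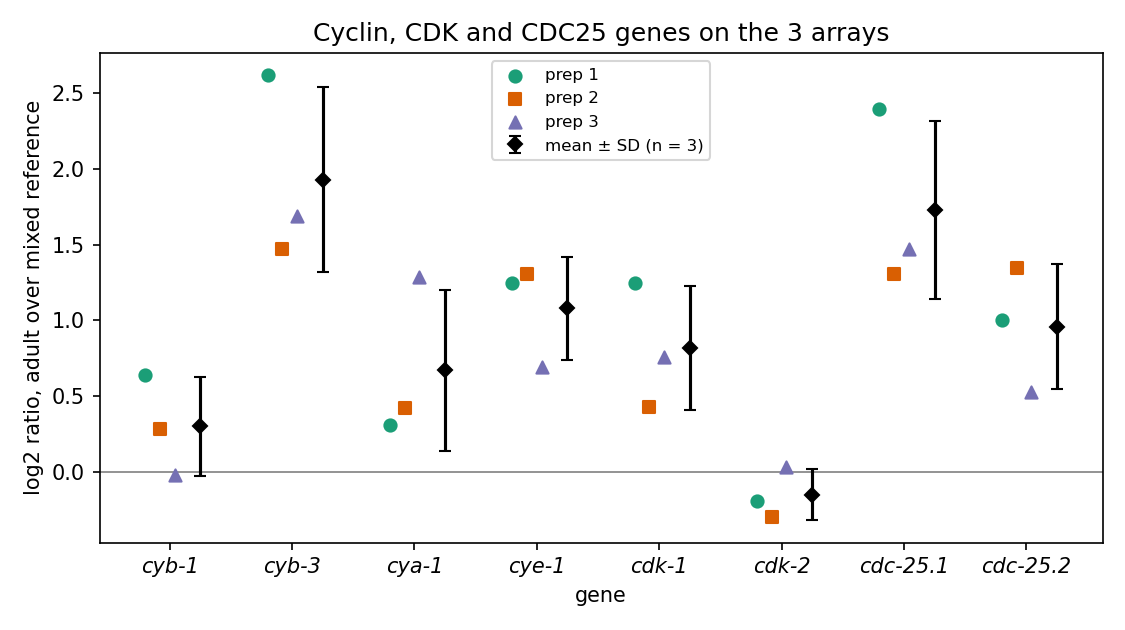
Log2 ratio of adult over mixed reference RNA (y axis) for the 8 measured genes (x axis), with 1 coloured point per prep and a black diamond for the mean with the SD over 3 preps as the bar. The points of cyb-3 and cdc-25.1 lie highest, cdk-2 lies around 0, and cya-1 has 1 point, prep 3 at 1.29, above its other two.

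Of the B-type and A-type cyclin genes, cyb-3 and cya-1 passed the test against the reference and cyb-1 did not. CYB-3 is a B-type cyclin needed for chromosome segregation in the early embryo. The log2 ratios of cyb-3 were 2.62 on prep 1, 1.47 on prep 2 and 1.69 on prep 3. All 3 preps were high, and cyb-3 ranked first among the 8 members on each array. Its mean was 1.93 ± 0.61 (SD, n = 3), a 3.8-fold higher level in the adults, with a 95% confidence interval from 1.43 to 2.42 and an adjusted p of 0.00014 in limma. It stood at the 99.6, 98.9 and 99.5 percentile of all probes on preps 1, 2 and 3.

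CYB-1 is the other B-type cyclin measured, and it also acts with CDK-1 in the embryo's divisions. For cyb-1 the log2 ratios were 0.64, 0.28 and −0.018 on preps 1, 2 and 3. Preps 1 and 2 were above 0 and prep 3 lay at 0, at the 47.9 percentile of its array. The mean of 0.30 ± 0.33 (SD, n = 3) did not pass the test against 0, with a limma adjusted p of 0.26 and a 95% confidence interval from −0.11 to 0.71. That interval leaves room for a change of either sign, but it ends below the lowest cyb-3 value of any prep.

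Within each array cyb-3 exceeded cyb-1, with differences of log2 ratios of 1.98, 1.19 and 1.70 on preps 1, 2 and 3. The mean difference was 1.63 ± 0.40 (SD, n = 3), a 3.09-fold larger ratio for cyb-3, and it had this sign on 3 of 3 preps. Pairs of related members were compared in this way with an exact two-sided sign-flip permutation test for 4 pairs. With 3 preps this exact permutation test cannot go below p = 0.25, so no pair could reach the threshold, and cyb-3 minus cyb-1 gave that smallest p (0.5 after Benjamini-Hochberg adjustment over the 4 pairs). Both genes are compared here by their ratios, since the brightness of different probes cannot be compared.

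Cyclin A, encoded by cya-1, acts between the start of S phase and mitosis. The log2 ratios of cya-1 were 0.31, 0.42 and 1.29 on preps 1, 2 and 3. All were positive, but prep 3 was far above the other two: the gene moved from the 66.2 percentile on prep 1 and the 81.9 on prep 2 to the 98.2 on prep 3. The mean was 0.67 ± 0.53 (SD, n = 3), 1.59-fold, with a limma adjusted p of 0.033. Without prep 3 the mean was 0.37 and the adjusted p 0.39, so the call rests on that array. The call was also lost once a running median by probe ID had been subtracted from each array, with a mean of 0.53 and an adjusted p of 0.13. With the arrays scaled to the same spread the call was kept only at the threshold, with a mean of 0.82 and an adjusted p of 0.049999.

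CYE-1 is the cyclin partner of CDK-2, and in the germ line it also helps to keep stem cells from entering meiosis. For cye-1 the log2 ratios were 1.25, 1.31 and 0.69 on preps 1, 2 and 3. Preps 1 and 2 were level and prep 3 lower, and all 3 were in the upper part of their array, at the 92.3, 98.2 and 90.3 percentile. The mean was 1.08 ± 0.34 (SD, n = 3), a 2.11-fold higher level, with a limma adjusted p of 0.0015.

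The order of the S phase and later cyclins differed between preps. The difference of cya-1 minus cye-1 was −0.94 on prep 1 and −0.88 on prep 2, but 0.60 on prep 3. Its mean of −0.41 ± 0.87 (SD, n = 3) was smaller than the spread between preps, with an exact sign-flip permutation p of 0.5.

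Of the 2 kinase genes, cdk-1 passed the test against the reference and cdk-2 did not. CDK-1 is the catalytic subunit that drives mitosis and both meiotic divisions. Log2 ratios of cdk-1 were 1.25, 0.43 and 0.76 on preps 1, 2 and 3. All preps were positive, at the 92.4, 82.1 and 92 percentile. The mean was 0.82 ± 0.41 (SD, n = 3), 1.76-fold, with a limma adjusted p of 0.0088.

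CDK-2 is the kinase that cyclin E activates. Its gene had log2 ratios of −0.19, −0.30 and 0.034 on preps 1, 2 and 3. Preps 1 and 2 lay below 0 and prep 3 at 0, so the samples had no common sign. The mean was −0.15 ± 0.17 (SD, n = 3), with a limma adjusted p of 0.56 and a 95% confidence interval from −0.54 to 0.23. This interval leaves room for a change of either sign, but its upper end lies below the lowest value that cye-1, the gene of its cyclin partner, had on any prep.

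The log2 ratio of cdk-1 exceeded that of cdk-2 on all 3 arrays, by 1.45, 0.73 and 0.73. The mean difference was 0.97 ± 0.41 (SD, n = 3), a factor of 1.96. The exact sign-flip permutation p was 0.25, the smallest that 3 preps allow.

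CDC-25.1 is the phosphatase needed for proliferation of the germ line and for the timing of divisions in the embryo, including those of the intestine. The log2 ratios of cdc-25.1 were 2.40, 1.31 and 1.47 on preps 1, 2 and 3. The preps fell in the same order as for cyb-3, with prep 1 highest and prep 2 lowest. With the arrays scaled to the same spread, prep 3 was highest for both genes (2.06 for cdc-25.1, 2.36 for cyb-3). Without scaling the mean of cdc-25.1 was 1.73 ± 0.59 (SD, n = 3), 3.31-fold, with a limma adjusted p of 0.00025. This gene stood at the 99.4, 98.2 and 99 percentile. With cyb-3 and cye-1 it was one of 3 members that passed at 2-fold or more, a level that 5.59% of all probes reached as higher.

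CDC-25.2 acts in oocyte maturation and in divisions of the intestinal lineage. Its gene had log2 ratios of 1.00, 1.35 and 0.53 on preps 1, 2 and 3. All preps were positive, with prep 2 highest. The mean was 0.96 ± 0.41 (SD, n = 3), 1.95-fold, with a limma adjusted p of 0.0036.

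The 2 phosphatase genes did not keep a common order. The difference of cdc-25.1 minus cdc-25.2 was 1.40 on prep 1, −0.038 on prep 2 and 0.93 on prep 3. The mean difference of 0.77 ± 0.73 (SD, n = 3) had an exact sign-flip permutation p of 0.5.

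**Figure D2:**
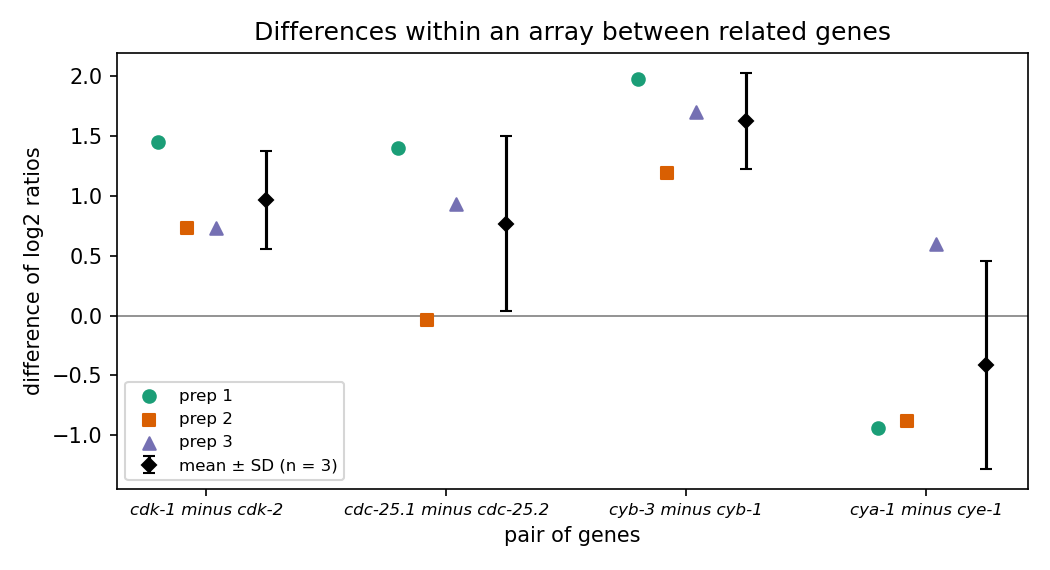
Difference between the log2 ratios of 2 related genes on the same array (y axis) for 4 pairs (x axis), with 1 coloured point per prep and a black diamond for the mean with the SD over 3 preps. The differences of cdk-1 minus cdk-2 and of cyb-3 minus cyb-1 are above 0 on all 3 preps, while the other pairs have preps on both sides of 0.

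By mean log2 ratio the members ran from cyb-3 (1.93) and cdc-25.1 (1.73) through cye-1 (1.08), cdc-25.2 (0.96), cdk-1 (0.82) and cya-1 (0.67) to cyb-1 (0.30) and cdk-2 (−0.15). The SDs over preps were between 0.17 and 0.61. The genes cyb-3 and cdc-25.1 differ by less than their SDs, as do all neighbours among cye-1, cdc-25.2, cdk-1 and cya-1. The steps from cya-1 to cyb-1 (SDs 0.53 and 0.33) and cyb-1 to cdk-2 (0.33 and 0.17) exceeded 1 SD of the lower gene. The former step was smaller than the SD of cya-1, and neither order held on every prep. On prep 1 cyb-1 (0.64) was above cya-1 (0.31), and on prep 3 cdk-2 (0.034) was above cyb-1 (−0.018). The step from cdc-25.1 down to cye-1 was larger than either SD, yet on prep 2 both genes had a log2 ratio of 1.31. Positive values on all 3 arrays were found for 6 of the 8 members, the same genes that passed the test, beside 30.2% of all probes. Negative values on all 3 arrays were found for 0 members, beside 30.7% of all probes.

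**Figure D3:**
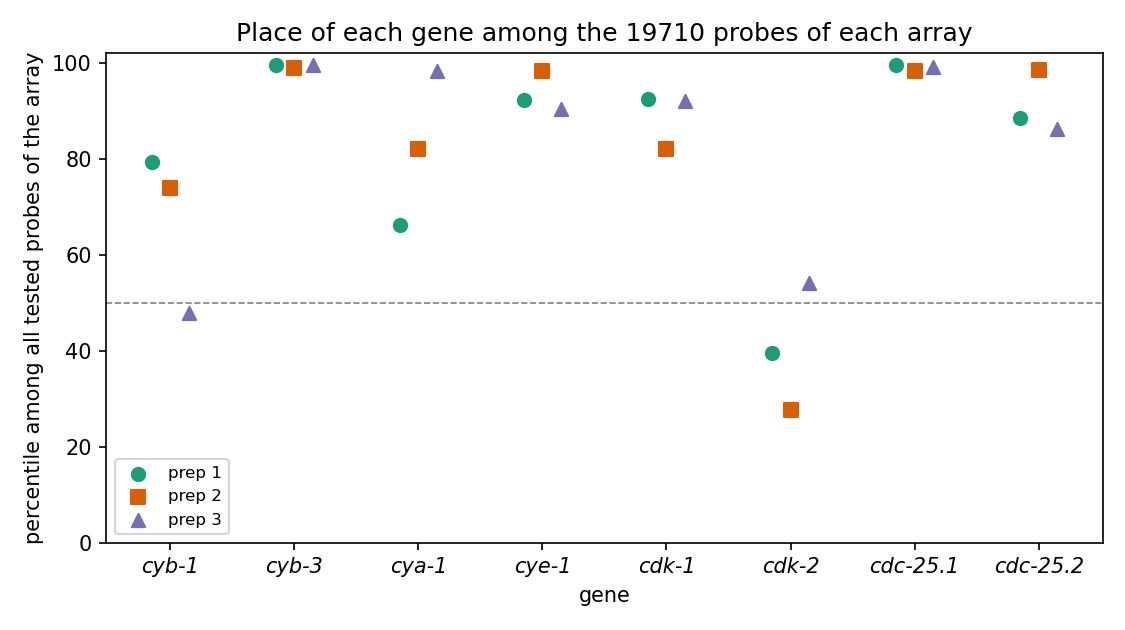
Percentile of each gene's log2 ratio among all 19710 probes tested on the same array (y axis) for the 8 measured genes (x axis), with 1 point per prep and the middle of the array as a dashed line. The genes cyb-3 and cdc-25.1 are at 98.2 or above on every prep, cya-1 spreads from 66.2 to 98.2, and cyb-1 and cdk-2 fall on both sides of the dashed line.

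The genes around this core were followed in 6 lists of other cyclins and CDKs, regulators and S phase genes, of which 63 of 78 genes were measured. In all, 36 of the 63 were higher, 3 lower and 24 not past the threshold, and the median log2 ratio was 0.65. The counts of this and the lists that follow are to be set beside the 15.8% of all probes that were higher and the 16.2% that were lower. All these lists were written with earlier results of these data known, so the counts are descriptive and no list was tested. Of 7 other cyclin genes, 3 were higher and 0 lower, with a median log2 ratio of 0.44. The cyclin T gene cit-1.1 stood at 0.93 ± 0.49 and the cyclin Y gene cyy-1 at 0.68 ± 0.44 (SD, n = 3), with limma adjusted p-values of 0.0056 and 0.024. The cyclin K gene ccnk-1 (0.34 ± 0.30) and the cyclin L gene cyl-1 (0.26 ± 0.26) did not pass. Without prep 1 a single cyclin gene of this list was higher, and the call of cyy-1 was lost (0.43, adjusted p = 0.082). After removal of the running median the same count was 1, and the call of cyy-1 was lost there too (0.37, adjusted p = 0.11).

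Of 12 other CDK genes and CDK partners, 5 were higher and 2 lower. The highest were mnat-1, whose product helps assemble the CDK-activating kinase, at 1.13 ± 0.41 and cks-1, which encodes a small CDK-binding protein, at 0.91 ± 0.58 (SD, n = 3). The lower genes were cdka-1, which encodes the activator of the neuronal kinase CDK-5, at −1.3 ± 0.36 with a limma adjusted p of 0.00051, and cdk-14 at −0.92 ± 0.45 with 0.0052. The gene of CDK-5 itself, cdk-5, chosen after its value was seen, was higher (0.73 ± 0.40, limma adjusted p = 0.015). Its call was not followed under the alternatives. Without prep 1, 3 genes of this list were higher. The following were chosen after their values were seen: cdk-4 (0.21 ± 0.21) and its cyclin D partner gene cyd-1 (0.37 ± 0.52), which act in G1, and the phosphatase gene cdc-25.4 (0.026 ± 0.066) did not pass, with adjusted p-values of 0.42, 0.23 and 0.93.

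Of 7 genes for CDK inhibitors, inhibitory kinases and checkpoint or opposing factors, 4 were higher and 0 lower. The gene wee-1.3, whose product is the Myt1-type kinase that holds CDK-1 inactive in oocytes, had log2 ratios of 2.54, 1.23 and 1.05 on preps 1, 2 and 3. All preps were high, and the mean of 1.61 ± 0.81 (SD, n = 3) was close to that of cdc-25.1, with a limma adjusted p of 0.00098. Its relative wee-1.1 had 0.21, 0.39 and 2.83, so that prep 3 alone was high, as for cya-1. The mean of wee-1.1 was 1.14 ± 1.46 with an adjusted p of 0.048, and without prep 3 it was 0.30 with an adjusted p of 0.5. The call of wee-1.1 was also lost after scaling of the arrays, with probes on at least 2 arrays and after removal of the running median (adjusted p = 0.093, 0.06 and 0.12). The phosphatase gene cdc-14 (0.37 ± 0.12) and the CDK inhibitor gene cki-1 (−0.15 ± 0.11) did not pass. The CDK inhibitor gene cki-2, chosen after its value was seen, was higher. Its log2 ratios were 1.59, 0.70 and 0.57 on preps 1, 2 and 3 (mean 0.95 ± 0.55, limma adjusted p = 0.0065).

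Of 10 genes for mitotic kinases and phosphatases, 4 were higher and 0 lower. The Polo kinase genes plk-1 (1.5 ± 0.46) and plk-3 (1.40 ± 0.67) were highest (SD, n = 3), with limma adjusted p-values of 0.00032 and 0.0012. The lowest were sur-6 (0.028 ± 0.31), which encodes a regulatory subunit of the phosphatase PP2A and whose sign turned under 4 alternatives, and gsp-2 (−0.47 ± 0.36), a PP1 catalytic subunit gene. The latter did not pass, except as lower after quantile normalization, after removal of the running median and without prep 1 (adjusted p = 0.037, 0.022 and 0.015).

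Of 14 genes for E2F and S phase entry, 13 were higher and 0 lower, with a median of 0.95. The highest were cdc-48.2 (1.66 ± 0.46), which encodes a general ATPase that unfolds proteins and also acts outside S phase, and rnr-1 (1.49 ± 0.52), the large subunit gene of ribonucleotide reductase (SD, n = 3). Probes of close paralogs, such as cdc-48.1 and cdc-48.2 here, can bind the transcript of both. The lowest were gmn-1 (0.60 ± 0.46), the gene of the replication licensing inhibitor geminin, and dpl-1 (0.20 ± 0.32), the gene of the E2F partner DP, which did not pass (limma adjusted p = 0.47). The call of gmn-1, with an adjusted p of 0.044, was lost without prep 1, without prep 2 and after removal of the running median (0.17, 0.083 and 0.11).

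Of 13 genes for the turnover of cyclins and CDC25, 7 were higher and 1 lower. The gene fzy-1, whose product activates the ubiquitin ligase that destroys B-type cyclins, had 1.37, 1.13 and 1.36 on preps 1, 2 and 3. Its preps lay close together, with a mean of 1.29 ± 0.14 (SD, n = 3) and a limma adjusted p of 0.0003. It was followed by prom-1 (1.2 ± 0.44), an F-box-type gene that acts in meiosis. The lowest were rbx-1 (0.26 ± 0.46), the gene of a RING subunit of ubiquitin ligases, which did not pass, and skr-1 (−0.61 ± 0.31), a Skp1-related gene that was lower with an adjusted p of 0.027. Without prep 2 the skr-1 call was lost (−0.44, adjusted p = 0.24), leaving 0 genes of this list lower. The Skp1-related gene skr-2, chosen after its value was seen, went the other way. It was narrowly called higher (0.50 ± 0.21, limma adjusted p = 0.049).

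**Figure D4:**
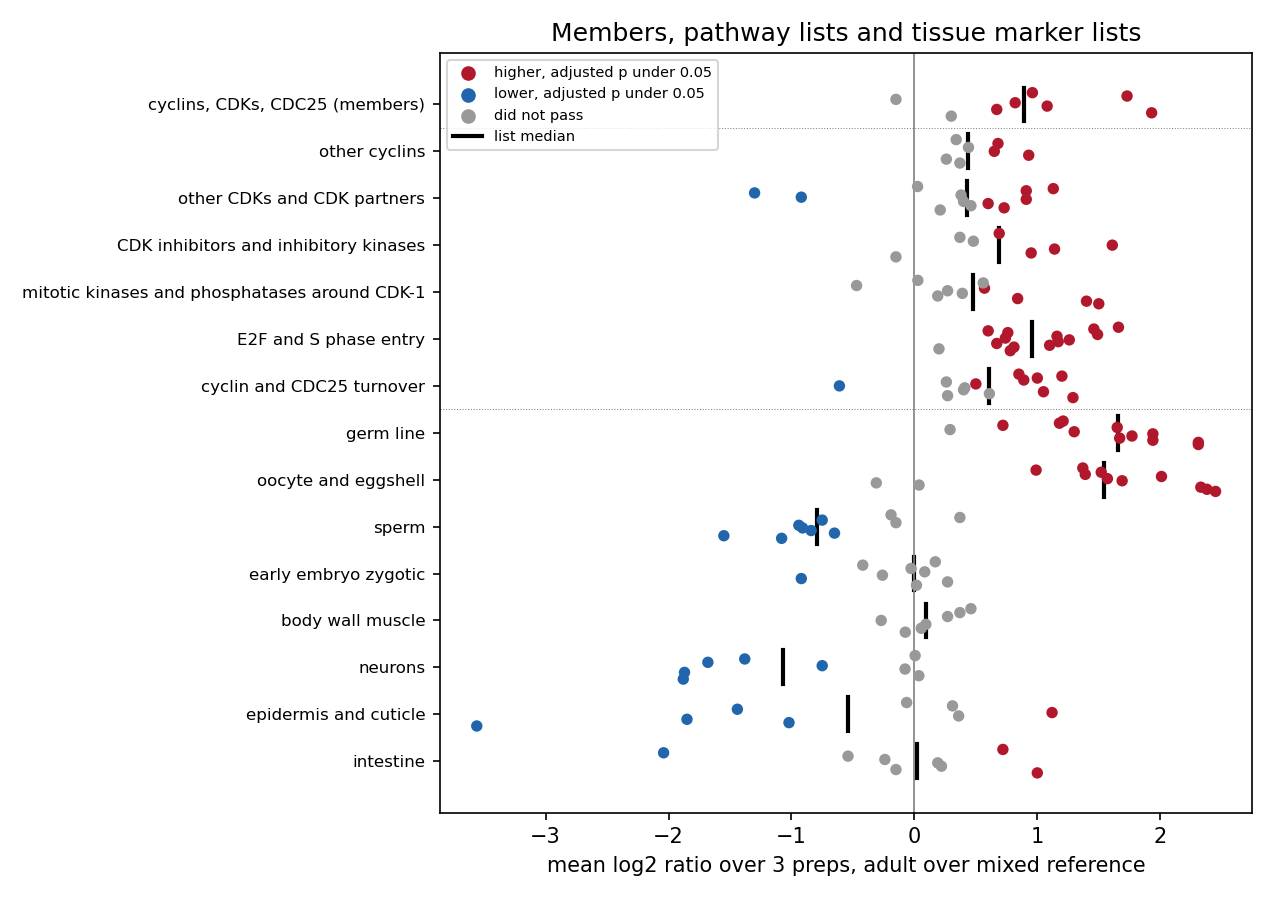
Mean log2 ratio over 3 preps (x axis) of every measured gene in the member list, the 6 pathway lists and 8 marker lists of tissues (y axis), with 1 point per gene coloured by the limma call and a black bar for the list median. Points of the S phase list all lie to the right of 0, the germ line and oocyte markers lie farthest right, and the sperm, neuron and epidermis medians lie to the left.

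Germ line and oocyte markers were mostly higher, as the members were, while those of other tissues were mostly lower or near 0. The shares of all probes called, 15.8% higher and 16.2% lower, apply to these lists too, and the single call among the early embryo markers is near them. Of 12 germ line markers, 11 were higher, with a median log2 ratio of 1.66 (2.00, 1.53 and 1.23 on preps 1, 2 and 3). The RNA helicase genes glh-1 and glh-2 stood at 2.31 ± 0.57 and 2.31 ± 0.35, mes-6 at 0.72 ± 0.27 and mes-3 at 0.29 ± 0.14 (SD, n = 3), the last without passing, and mes-6 lost its call without prep 2 or prep 3. Of 12 oocyte and eggshell markers, 10 were higher, with a median of 1.55, from the yolk receptor gene rme-2 (2.45 ± 0.74) and the eggshell gene cbd-1 (2.38 ± 0.48) to cpg-2 (0.038 ± 0.021) and egg-1 (−0.31 ± 0.072), which did not pass. The member median of 0.89 was below both marker medians. Of 10 sperm markers 7 were lower (median −0.80), of 8 neuron markers 5 were lower (median −1.06), of 8 epidermis and cuticle markers 4 were lower and 1 higher (median −0.54), and of 8 markers of zygotic transcription in the early embryo 1 was lower and 0 higher (median −0.0047). Of 7 body wall muscle markers 0 passed in limma (median 0.093), and of 8 intestine markers 2 were higher and 1 lower (median 0.019). The following genes were chosen after their values were seen, and so cannot check the adult label. The adult cuticle collagen gene col-19, the 1 higher gene of its list, stood at 1.12 ± 0.77 (limma adjusted p = 0.0061, n = 3). The yolk protein gene vit-2 was also higher (1.00 ± 0.35), while the yolk genes vit-5 (−0.15 ± 0.27) and vit-6 (0.22 ± 0.15) did not pass. The part of tissue content in the members' ratios was not tested.

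The named genes closest to the mean profile of the 8 members (1.16, 0.78 and 0.81 on preps 1, 2 and 3) were found by Euclidean distance over the 3 arrays. They were wdr-46, ugt-26, zim-3, hinf-1 and fcho-1, at distances from 0.0437 to 0.0962 on the log2 scale. Their means ran from 0.88 for hinf-1 to 0.92 for wdr-46. Over 3 arrays such closeness shows little beyond a similar mean ratio.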

How the data were processed

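The authors deposited 1 table of log2 ratios, with a column per array, and no spot intensities were used here. Normalization, centring, dyes and genome build: not given in the sources used here. That the deposited values are on the log2 scale was settled from them: 100% of those under a ratio of 3 correspond, as log2, to a multiple of 0.001 within 5e-05, against 10.7% as natural logs and 8.89% as log10. The deposited columns had medians of 0.0186, 0.0718 and −0.00868 on preps 1, 2 and 3, so the authors' centring stays unknown. Dim spots could not be filtered, and the number of arrays limits the precision.

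Of 20000 probes, 15655 had 1 gene in the platform annotation, 198 had several, and 4147 stay unnamed. RefSeq symbols (assembly WBcel235) replaced the platform's for 15569 probes by gene ID and 7 by accession. Each array was centred on its median. Intercept-only models were fitted with limma 3.58.1 (lmFit, eBayes; R 4.3.3; 2 residual and 8.957 prior degrees of freedom; median standard error 0.182), and Benjamini-Hochberg adjustment ran over 19710 probes. The fit was tested on simulated data. The reference is 1 comparator, so its own spread is left out. Genes with several probes are given as their mean, with the largest adjusted p. Members and lists were chosen with earlier results of these data known. All members are named, and of each pathway list the 2 highest and 2 lowest genes, likewise for the germ line and oocyte markers, with 5 nearest profiles. Added after their values were seen were cdk-4, cdk-5, cyd-1, cdc-25.4, cki-2, skr-2, col-19, vit-2, vit-5 and vit-6. For cdk-5, cki-2 and skr-2 no values under the alternatives are given. Alternatives were no centring, scaling, quantile normalization, probes on at least 2 arrays, trend and robust eBayes, 1 row per gene, a running median of 101 probes removed, and each prep left out.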

Additional observations from a re-analysis of the deposited data

How the results depend on the processing

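The 7 members other than cya-1 kept their direction and their side of the threshold under all 10 alternatives, with means from 1.58 to 2.3 for cyb-3, 1.39 to 1.94 for cdc-25.1 and −0.25 to −0.08 for cdk-2. For cya-1 the mean was 0.53 (adjusted p = 0.13) after removal of the running median and 0.37 to 0.86 with 1 prep left out. The count of higher members was 5 after removal of the running median and without prep 3, and 6 otherwise. After scaling, the 6 included cya-1 at an adjusted p of 0.049999. With 1 prep left out, 1 to 3 other cyclins and 3 to 5 other CDKs and partners were higher, 0 to 1 mitotic kinases and phosphatases and 0 to 1 turnover genes were lower. After removal of the running median 1 other cyclin was higher. Of the mitotic kinases and phosphatases 1 was lower both there and after quantile normalization. The sign of sur-6 turned to −0.022 after scaling and after quantile normalization, −0.055 after removal of the running median and ran from −0.14 to 0.16 with 1 prep left out, and those of cpg-2 and cdc-25.4 to −0.091 and −0.14 after removal of the running median. The cause was not tested for any of these. The 3 arrays form a single group, so the prep number cannot be fitted as a replicate block. Each log2 ratio already sets adult against reference RNA on the same array, and the differences between genes were also taken within arrays.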
